A study of Mus musculus with 6 samples.

Results

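Immune cells of the mouse cornea were compared between 1 library of miR-183/96/182 knockout mice (KO) and 1 library of wild-type mice (WT), both prepared after magnetic sorting of dissociated cornea for cells that carry CD45, the common leukocyte antigen. The labels call these cornea-resident immune cells CRIC. A barcode counted as a cell with at least 500 unique molecular identifiers (UMIs, 1 per captured transcript), at least 250 genes and at most 20% mitochondrial UMIs. An immune cell was a cell with 2 or more UMIs over Tyrobp, Fcer1g, Ptprc and Cd52, genes of blood-derived cells. This gate took 1719 of 3356 WT cells and 2671 of 4854 KO cells, and 1581 and 2528 of them had 3 or more such UMIs. After gate cells in clusters of epithelial, keratocyte or other non-immune type were left out (68 WT and 127 KO), 1651 WT and 2544 KO cells were compared, 4195 of the 63021 cells that the same limits gave in all 6 libraries of the series. Both groups were naive 6-month-old females on a mixed background written as 129S2–C57BL/6-mixed, and the knockout allele is written as miR-183CGT/GT. No driver or cell type is named for the allele. Corneas were cut anterior to the limbus. The labels do not say how many mice gave each library.

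The 3 microRNAs of the cluster are made from 1 primary transcript and are best known from sensory organs such as the retina, the inner ear and sensory ganglia. A microRNA directs the silencing complex to messenger RNAs that pair with its seed, bases 2 to 8 from the 5′ end, and usually lowers their amount or translation. Resident macrophages of the cornea take up debris, present antigen on MHC class II and take part in wound repair, while gamma delta T cells and neutrophils are early responders at this surface.

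The 3 mature microRNAs of the knocked-out cluster are shown because their seeds define which transcripts they could bind. The sequences are those of RefSeq on GRCm38.p6, 5′ to 3′, with the seed in capitals.
mmu-miR-182-5p: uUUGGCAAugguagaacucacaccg
mmu-miR-96-5p: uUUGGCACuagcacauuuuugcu
mmu-miR-183-5p: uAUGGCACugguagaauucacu
All 3 genes lie on the minus strand of chromosome 6, with hairpins at chr6:30165918-30165992 for Mir182, chr6:30169446-30169551 for Mir96 and chr6:30169668-30169737 for Mir183. The count matrices have no feature for any of these genes, so the knockout itself could not be checked in these libraries.

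The WT library held 9827933 UMIs and the KO library 23141410, with a median of 1157.5 and 2139 UMIs per cell. Barcodes of at most 100 UMIs, a measure of free RNA, held 16.2% of the WT library's UMIs, and in the KO library 8.33%. The 2 libraries shared 2 cell barcodes. Immune cells were shallower in WT, with a median of 804 UMIs against 1478 in KO, and had a median mitochondrial share of 1.65% against 1.89%. Of 22 markers of mononuclear phagocytes, 20 were detected in the WT immune cells and 22 in the KO immune cells. Y-linked UMIs numbered 0 in both libraries. With 1 library per genotype there is no replicate check and no test: intervals are 95% exact ones and cover counting error only, and which animals, days or preparations lie behind a difference cannot be told apart from the genotype. Counts were summed over the cells of a class and scaled to the total UMIs of that class in the usual unit CPM. A gene was called higher or lower when the KO and WT sums differed by 2-fold or more among genes with a mean of at least 20 CPM.

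The immune gate held 51.2% (49.5 to 52.9) of WT cells and 55.0% (53.6 to 56.4) of KO cells. This difference of 3.81 percentage points turned to -1.22 when every cell was thinned to 500 UMIs, and rose to 22.1 among cells of 1000 or more UMIs. Differences in the immune share and in depth between these libraries cannot be told apart.

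Most immune cells were mononuclear phagocyte-like in both libraries, 1479 WT cells (89.6%, 88.0 to 91.0) and 2028 KO cells (79.7%, 78.1 to 81.3). T or innate lymphoid-like cells made up 1.58% (1.03 to 2.30) of the WT immune cells, 26 cells, and 6.09% (5.20 to 7.09) of the KO immune cells, 155 cells. Neutrophil-like cells made up 0.242% (0.0661 to 0.619) in WT, 4 cells, and 2.83% (2.22 to 3.55) in KO, 72 cells. The intervals of WT and KO did not overlap for any of these 3 classes, nor for the unnamed cells. All these shares are parts of the same total, so they do not move independently. Cells of clusters that stayed unnamed took 8.60% (7.29 to 10.06) in WT and 11.4% (10.15 to 12.66) in KO. They included a cluster led by Mgl2, a lectin of some dendritic cells and macrophages, and small clusters that also carried keratocyte or epithelial genes.

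The gate did not take all classes alike. When all cells were clustered, 78.7% of the T or innate lymphoid cluster passed it. That cluster held 36 WT cells (median of 644 UMIs) and 189 KO cells (1184 UMIs). In the largest phagocyte clusters 96.2% and 100% passed, and in a smaller cluster 83.7%. The effect of the gate on the T share was not tested. T-cell markers were also counted at equal depth, without the clusters. At 500 UMIs per cell, 29 of 1651 WT cells (1.76%, 1.18 to 2.51) and 134 of 2544 KO cells (5.27%, 4.43 to 6.21) had 2 or more UMIs over the 16 T and innate lymphoid markers; unthinned, the shares were 2.30% and 7.98%. Among epithelial-like cells outside the gate, at 500 UMIs, the same was true of 0 of 607 WT cells and 2 of 907 KO cells. Unthinned, 10.2% of these WT cells and 15.8% of these KO cells passed, more than of the immune cells. The neutrophil markers gave no such check, because 4.12% of WT and 6.06% of KO epithelial-like cells also passed, against 0.727% and 4.87% of immune cells. The neutrophil share rests on the clusters alone, and it was 2.59 points higher in KO at the resolution used, 7.69 points higher at a finer one and 11.2 points higher with a gate of 3 UMIs. The 2 larger values include a second, deeper cluster led by Ptgs2 that was also named neutrophil. It held 8 WT and 142 KO cells at the finer resolution and 13 and 232 with the gate of 3 UMIs. The cluster led by S100a9 held 4 WT cells in both settings, and 72 and 67 KO cells.

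**Figure D1:**
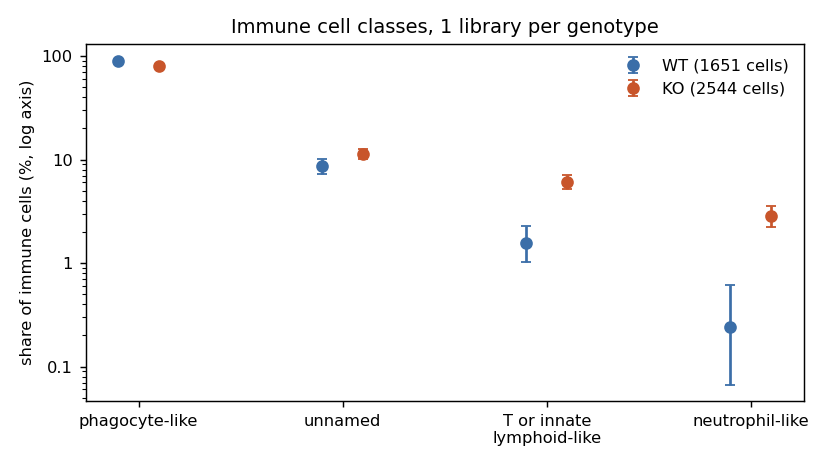
Share of immune cells in each class (percent, log axis) in WT (blue, 1651 cells) and KO (orange, 2544 cells), 1 library each; bars are exact binomial 95% intervals. T or innate lymphoid-like and neutrophil-like cells take larger shares in KO (6.09% and 2.83%) than in WT (1.58% and 0.242%).

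In phagocyte-like cells, 10 of 15 measured genes of a lipid-associated and repair list were higher in KO by 2-fold or more. So were 9 of 15 of a glycolysis list, and MHC class II transcripts were lower by less than 2-fold. All gene lists were chosen with earlier results of these data known, so their counts are descriptions and no separate evidence. Arg1, Spp1, Pdpn and Fn1 of the repair list also lead a cluster of 316 KO cells and 1 WT cell. A gene was measured by its mean over the 2 libraries, so a gene low in 1 library could enter through the other alone. Of 4425 genes measured, 184 were higher in KO (4.16%) and 59 were lower (1.33%), with a median log2 ratio of KO over WT of 0.08 over all genes. The sums behind this were 1331308 UMIs in WT and 3463781 in KO.

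Arg1, arginase 1, which breaks down arginine and marks alternatively activated macrophages, showed the largest ratio. It had 2 UMIs in the WT phagocytes (an interval of 0.182 to 5.43 CPM) and 609 in the KO phagocytes (175.8 CPM, 162.1 to 190.4), a log2 ratio of 6.87 (5.01 to 9.92). Arg1 lies at chr10:24915221-24927484 of GRCm38 on the minus strand. Spp1, osteopontin, a secreted matrix protein of activated macrophages at chr5:104435118-104441050, stood at 69.9 CPM (56.4 to 85.6) in WT and 687.7 CPM (660.3 to 715.9) in KO, a log2 ratio of 3.30. Fn1, fibronectin, stood at 9.01 CPM (4.66 to 15.8) in WT and 160.2 CPM (147.2 to 174.1) in KO. In all 3 genes the WT and KO intervals lay far apart, but the rule that named them asked for a ratio interval that excludes 0.

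Other genes at the top of the list showed the same direction. Fabp5, a fatty acid carrier, had 20 UMIs in WT and 505 in KO. Pdpn, podoplanin, stood at 6.76 and 67.0 CPM, and Lpl, lipoprotein lipase, at 19.5 and 105.4 CPM. S100a4, a calcium-binding protein of motile cells, stood at 154.0 CPM in WT and 835.8 CPM in KO. Lyz1, one of the 2 mouse lysozymes, had 24.0 and 169.5 CPM; its close relative Lyz2 can share reads with it, so its level is less certain. Adam8, a membrane protease, had 6.01 and 52.5 CPM, Nt5e, the ecto-enzyme CD73 that makes adenosine, 7.51 and 42.2 CPM, Lmna, lamin A/C, 71.4 and 365.5 CPM, and Pkm, the last kinase of glycolysis, 79.6 and 393.5 CPM. None of the intervals of these genes overlapped between the libraries. The naming rule asked for a ratio interval that excludes 0, so this is no separate evidence. Over all 4425 measured genes that interval excluded 0 for 1079 higher and 679 lower genes.

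**Figure D2:**
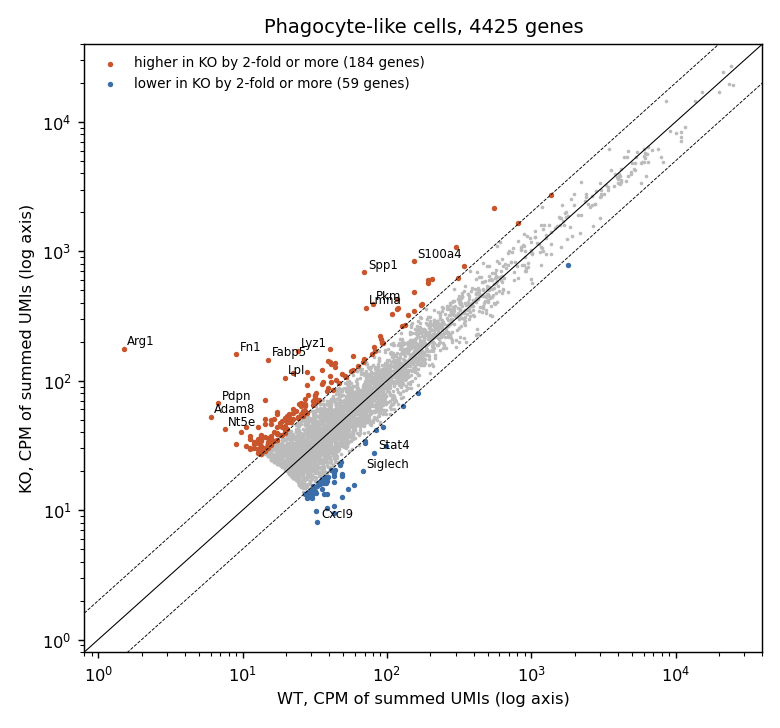
CPM of summed UMIs in the phagocyte-like cells of WT (x, log axis) and KO (y, log axis), 1 point per gene, 4425 genes; the solid line marks equality and the dashed lines 2-fold. Arg1 and Fn1 stand farthest above the upper dashed line, and the 59 lower genes mostly lie under 100 CPM.

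The share of phagocytes with a UMI was set beside that of epithelial-like cells outside the gate, with every cell thinned to 500 UMIs. Median depths before thinning were 788 in WT and 1444 in KO phagocytes, and 3942 and 7232 in the epithelial-like cells. Spp1 was seen in 2.57% of WT and 15.5% of KO phagocytes (5.0% and 27.9% unthinned), and in 0% and 0.110% of epithelial-like cells. S100a4 was seen in 4.87% and 21.5% of phagocytes (7.78% and 39.9% unthinned), against 0% and 0.441% of epithelial-like cells. Both genes were thus seen in more KO than WT phagocytes at equal depth, and hardly at all in the epithelium. Lpl, Lyz1 and Adam8 were seen in 0 epithelial-like cells of either library at this depth. Arg1 was seen in 0 of 1479 WT phagocytes and 130 of 2028 KO phagocytes (6.41%; 0.135% and 14.2% unthinned), while epithelial-like cells had it at 4.12% in WT and 3.75% in KO. Fabp5, Lmna, Pkm and Lgals3 were also well detected in the epithelium itself: Fabp5 was seen in 11.2% and 21.6% of epithelial-like cells and in 0.541% and 5.23% of phagocytes. The summed level of the 14 epithelial markers in phagocytes was 201.3 CPM in WT (2 markers at 0) and 243.7 CPM in KO (0 at 0), and that of the 10 keratocyte markers 60.1 and 55.4 CPM. Krt12, the main corneal keratin, was seen in 2.84% of WT and 2.91% of KO phagocytes. Other single markers went both ways. Krt5 was seen in 0.406% of WT and 1.33% of KO phagocytes and Kera in 0% and 0.493%, but Dcn in 2.03% and 1.33%.

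Of the 20 genes of the lipid-associated and repair list, 15 were measured and 10 were higher in KO, with a median log2 ratio of 1.61. Besides those above they were Lgals3, galectin-3 (log2 1.66, 1.45 to 1.88), Ctsl, cathepsin L (1.61, 1.37 to 1.86), Cd9, a tetraspanin (1.20, 0.92 to 1.48), and Plin2, a coat protein of lipid droplets (1.19, 0.60 to 1.82). Trem2, the lipid-sensing receptor of such macrophages, differed little (log2 0.27, 0.16 to 0.38), and Apoe, the apolipoprotein E of lipid transport, stood lower (log2 -0.25, -0.26 to -0.23). Apoe alone had 23451 CPM in WT and 19786 CPM in KO, so the summed level of the list was not higher in KO (25156 CPM in WT and 23654 CPM in KO).

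Of the 20 genes of the glycolysis and hypoxia list, 15 were measured and 9 were higher, with a median of 1.44 and a summed level of 1891 CPM in WT and 4224 CPM in KO. Pgk1, phosphoglycerate kinase, stood at 27.8 CPM in WT and 115.8 CPM in KO. Aldoa, aldolase, stood at 117.9 and 427.9 CPM, Ldha, lactate dehydrogenase A, at 118.7 and 362.9 CPM, and Tpi1, triosephosphate isomerase, at 108.9 and 326.5 CPM. Hk2, hexokinase 2, at the entry of glycolysis, went the other way with a log2 ratio of -0.42 (-0.63 to -0.22), and Hif1a, the hypoxia factor, differed little (0.19, -0.11 to 0.50).

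MHC class II transcripts were lower in KO phagocytes, but by less than 2-fold. Of 9 measured genes of the presentation list 0 passed 2-fold, and the median log2 ratio was -0.40. H2-Aa, the alpha chain of I-A (chr17:34282744-34287823), stood at 8248 CPM in WT and 4907 CPM in KO, a log2 ratio of -0.75 (-0.78 to -0.71). Cd74, the invariant chain, had a ratio of -0.39 (-0.40 to -0.37) and Ciita, the factor that switches the class II genes on, -0.73 (-1.03 to -0.42). Ctss, the protease that trims the invariant chain, did not differ beyond its interval (0.02, -0.05 to 0.10).

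Counted per cell at 500 UMIs, the summed UMIs of H2-Aa, H2-Ab1, H2-Eb1 and Cd74 had a median of 28 in WT and 20 in KO phagocytes. The lower end differed more than the middle: the 10th percentile was 16 in WT and 1 in KO, and 20 WT cells (1.35%) against 445 KO cells (21.9%) had fewer than 5 such UMIs. The 90th percentile was 40 in both libraries.

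**Figure D3:**
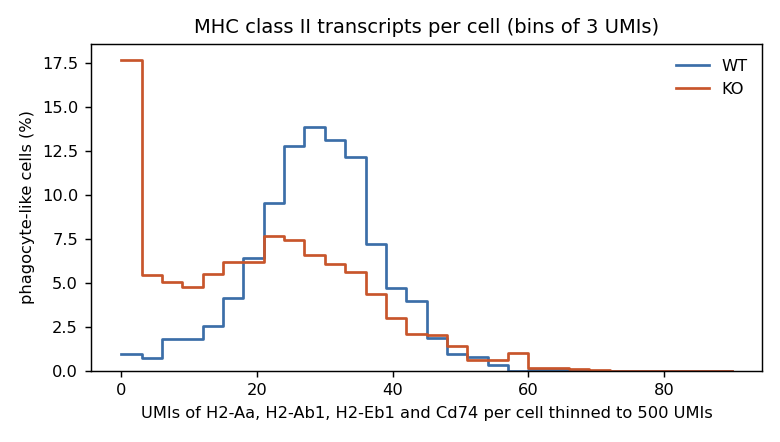
Percent of phagocyte-like cells (y) by the number of UMIs of 4 MHC class II genes per cell thinned to 500 UMIs (x, bins of 3 UMIs), WT blue, KO orange. KO has a second peak near 0, where 21.9% of its cells hold fewer than 5 such UMIs against 1.35% in WT.

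Most other lists stayed inside 2-fold in phagocytes. Of the measured members, 0 of 17 interferon response genes (median -0.30), 0 of 19 immediate early and heat shock genes (-0.12), 0 of 4 dendritic genes (-0.39) and 0 of 4 proliferation genes (-0.45) passed it. The T effector and neutrophil lists had 1 measured member each in phagocytes, which did not pass it. Of 16 complement and phagocytic receptor genes 2 were higher, Cfp, properdin (58.6 and 155.3 CPM), and Msr1, a scavenger receptor (78.9 and 161.4 CPM), while C1qa, C1qb and C1qc had log2 ratios of 0.22, 0.36 and 0.21. Of 15 chemokine and receptor genes, Ccl9 (41.3 and 135.1 CPM) and Cxcl10 (31.6 and 75.6 CPM) were higher. Cxcl9, a ligand of Cxcr3, was the 1 lower gene of that list, with a log2 ratio of -2.03, but its 44 WT UMIs came from 5 cells and its 28 KO UMIs from 2 cells. Of 9 inflammatory mediators 1 was higher, Il1rn, the interleukin-1 receptor antagonist (17.3 and 57.2 CPM), and Il1b had a log2 ratio of 0.14 (0.02 to 0.26). Of 11 resident macrophage genes 1 was higher, F13a1 (27.8 and 56.0 CPM), a coagulation factor subunit, while Csf1r and Mrc1 had ratios of -0.04 and -0.19.

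Fewer genes were lower than higher over all phagocyte-like cells, but not within clusters weighted alike, where 117 were higher and 135 lower. Of 10 measured microglia-like homeostatic genes 2 were lower in KO: Siglech, a sialic acid-binding lectin, at 68.4 CPM in WT and 19.9 CPM in KO (log2 -1.78, -2.25 to -1.31), and Slc15a2, a peptide transporter, at 54.1 and 14.4 CPM (-1.91, -2.46 to -1.37). Cx3cr1, the fractalkine receptor of the same list, had a ratio of 0.17 (-0.04 to 0.38). Stat4, a transcription factor of interleukin-12 signalling, stood at 81.9 and 27.7 CPM. The other lower genes named by the rule were Rtbdn, Sult1a1, Phykpl, Cbfa2t3, Cstf2, Gkap1, Sdccag8 and Lrch1, with WT levels of 32.3 to 48.8 CPM and log2 ratios of -2.17 to -1.40.

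**Figure D4:**
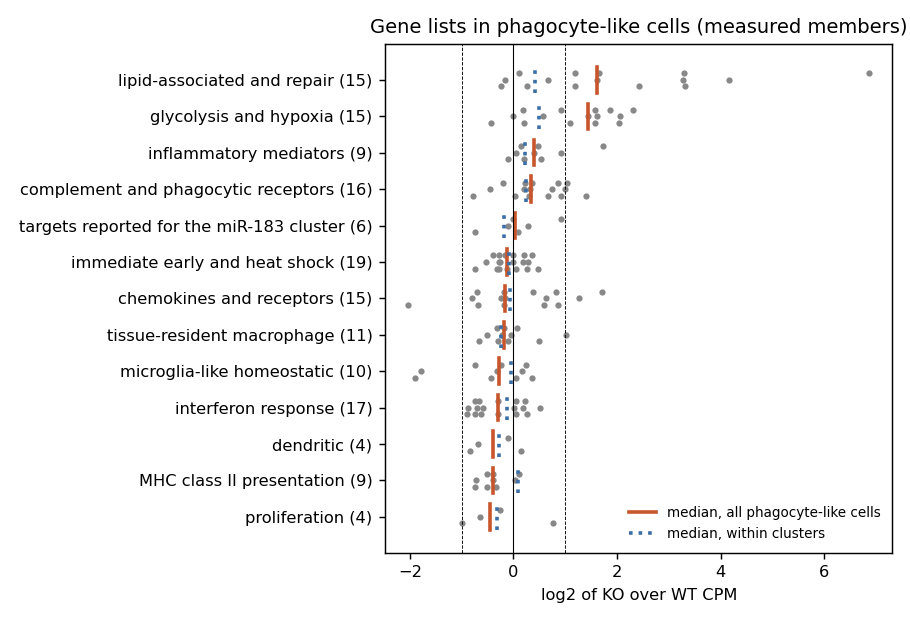
Log2 of KO over WT CPM (x) for each measured member (grey points) of the lists of genes (rows, number measured in brackets) in phagocyte-like cells; orange bars are medians over all phagocyte-like cells, dotted blue bars medians of ratios taken within clusters, dashed lines 2-fold. The lipid-associated and glycolysis lists have medians of 1.61 and 1.44 in all cells and of 0.41 and 0.49 within clusters.

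The 2 libraries filled the phagocyte clusters unevenly, and the leading genes that could be compared inside clusters differed less there. A cluster led by Arg1, Spp1, Pdpn and Fn1 held 316 KO cells and 1 WT cell, and clusters 2 and 3 in order of size held 423 and 383 WT cells against 92 and 102 KO cells. Clusters 2 and 3 were also shallow, with a median of 727 and 687 UMIs per cell against 1755 in the cluster led by Arg1, and the part of depth in this was not tested. Where 1 library makes up almost all of a cluster, library and cell type cannot be told apart. When KO and WT were compared inside the 8 of 11 phagocyte clusters with at least 20 cells of each library, and these were weighted alike, the lipid-associated median was 0.41 with 2 members past 2-fold, the glycolysis median to 0.49 with 3, and the MHC class II median to 0.09. Spp1 had a log2 ratio of 1.15, Fabp5 of 2.61, Pgk1 of 1.85 and Pkm of 1.02, while S100a4 stood at 0.23 and Fn1 at 0.72. Arg1, the gene with the largest ratio, could not be compared in this way. Like Pdpn, Adam8 and Nt5e, it fell under the CPM minimum there. Arg1 and Pdpn are thus not in the lipid-associated median within clusters. Spp1 was lower in KO in cluster 2 (71.2 and 38.1 CPM) and cluster 3 (66.8 and 33.9 CPM), from 3 KO UMIs each. In the other clusters used it was higher. Fabp5 had 0 WT UMIs in clusters 2, 5, 8 and 9. Siglech and Slc15a2 stayed lower, at -1.01 and -1.69. The summed MHC class II level inside 9 clusters of all immune cells had log2 ratios from -0.64, in the cycling cluster of 22 WT and 27 KO cells, to 0.45, in a cluster led by Lpl. Without the phagocyte clusters of fewer than 20 WT cells, chosen after seeing the data, Arg1 had a log2 ratio of 5.40 and Spp1 of 2.21, and 152 genes were higher and 46 lower. Cluster 8, led by Lyz1 and Fabp5 with Arg1 among its top genes, stayed in with 20 WT and 264 KO cells. It held 102 KO UMIs of Arg1 and 364 of Spp1. All clusters were built from the same counts, so the values within them describe where the difference sat and are no separate evidence.

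Over all immune cells, 170 of 4553 genes were higher in KO (3.73%) and 35 lower (0.769%), and 123 of the higher genes (72.4% of these, 66.8% of those of phagocytes) and 25 of the lower genes were also called in phagocytes. Phagocyte-like cells held 1331308 of the 1532373 WT UMIs and 3463781 of the 4665471 KO UMIs summed here, so much of this overlap is built in. The UMIs of several named genes of the whole gate lay in T-like or neutrophil-like cells or in the unnamed cluster led by Mgl2 (88 WT and 254 KO cells). Lrg1, a secreted glycoprotein stored by neutrophils, had 0 UMIs in WT and 193 in KO, so it was at least 4.40 higher on the log2 scale at a floor of 3 counts per library, and 108 of the 193 were in the 72 neutrophil-like cells and 79 in the cluster led by Mgl2. Ptgs2, the inducible cyclooxygenase, stood at 9.79 CPM in WT and 63.2 CPM in KO; 155 of its 295 KO UMIs were in the cluster led by Mgl2 and 100 in neutrophil-like cells. Areg, amphiregulin, an epidermal growth factor family ligand, stood at 11.8 and 75.9 CPM, and 221 of its 354 KO UMIs were in T or innate lymphoid-like cells and 57 in the cluster led by Mgl2. Ltb, lymphotoxin beta, stood at 7.83 and 51.9 CPM, and Il17a, the signature cytokine of interleukin-17 producing T cells, at 7.83 and 43.9 CPM. In each of these genes the intervals of the 2 libraries were apart. For all but Il17a the naming rule asked for a ratio interval that excludes 0. Over all 4553 genes that interval excluded 0 for 1184 higher and 612 lower genes. Of 8 measured T and innate lymphoid effector genes 5 were higher, and of 6 measured neutrophil genes 4 were higher, among them S100a8 (96.6 and 334.8 CPM) and S100a9 (78.3 and 347.7 CPM).

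The T or innate lymphoid-like cells fell into a cluster led by Trac, Il17f and Lck and one led by the gamma delta receptor genes Trdv4 and Trdc, which also held Il17a and Areg among its leading genes. Trdc UMIs were seen in 14 of 26 WT cells and 58 of 155 KO cells, and Trac UMIs in 2 and 51. Il17a was seen in 7 WT cells and 58 KO cells (416.4 CPM, 179.8 to 820.4, and 738.6 CPM, 640.9 to 846.9), and its intervals overlapped. Areg was seen in 0 WT cells and 36 KO cells (0 CPM, up to 192.0, and 796.2 CPM, 694.7 to 908.4). Il5, Ifng and Cd8a had 0 UMIs in both libraries.

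Gene by gene, this class could hardly be compared. The 26 WT cells held 19213 UMIs, so that 1 UMI was worth 52.1 CPM, against 277553 UMIs in KO. With a mean of at least 100 CPM, 140 of 1563 genes were higher (8.96%) and 502 lower (32.1%), the median log2 ratio was -0.42, and the counting interval excluded 0 for only 82 higher and 274 lower genes. The genes with the largest higher ratios were those of phagocytes: C1qa (2 and 657 UMIs), H2-Ab1 (4 and 1021), C1qb (0 and 722) and Ifi27l2a (2 and 389), followed by Ifitm2. C1qa UMIs were present in 52 of the 155 KO cells. Of these KO cells 23 (14.8%) were among the 5% of cells nearest to simulated doublets, against 0 of 26 in WT. Their part in these ratios was not tested, and without all cells so marked the T share was 3.19 points higher in KO in place of 4.52. The lower genes named by the rule (Fdx1, Smpd2, Tcrg-V1, Muc4 and Ddx10) had 4 to 11 WT UMIs each.

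The neutrophil-like cells of KO carried some but not all of the known neutrophil transcripts. S100a8 was seen in 60 and S100a9 in 58 of 72 cells, Csf3r, the receptor for granulocyte colony-stimulating factor, in 51, Il1r2, the decoy receptor for interleukin-1, in 43, Cxcr2 in 42 and Lrg1 in 40. Ly6g and Mmp8 had 0 UMIs. The 4 WT cells held 2386 UMIs in all, of which S100a8 took 95, and no gene was compared.

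The whole-cornea libraries of the same age and genotypes share no library with the CD45-enriched pair and gave 185 WT and 311 KO immune cells by the same gate, placed on the CD45-enriched clusters by the likelihood of their counts. Their phagocyte-like cells, 159 and 257, held 298035 and 316081 UMIs, and the median depth was 1643 in WT and 1174 in KO, the reverse of the CD45-enriched pair. The 14 epithelial markers summed to 1560 CPM in WT (1 at 0) and 651.7 CPM in KO (6 at 0) of these cells; their part in the ratios was not tested. Of 2018 genes with a mean of at least 50 CPM, 242 were higher (12%) and 128 lower (6.34%) by 2-fold. Here too a gene low in 1 library could be measured through the other alone. Of the 184 genes higher in the CD45-enriched phagocytes 91 were measured here, and 60 of these (65.9%) were higher by 2-fold. Of the 59 lower genes 5 were measured, and 3 were lower.

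In that pair Arg1 had 3 UMIs in WT and 306 in KO phagocytes (log2 6.59, 5.03 to 8.87). Spp1 had 43 and 558 (3.61, 3.16 to 4.10), Fn1 had 7 and 262 (5.14, 4.08 to 6.47) and Fabp5 had 9 and 285 (4.90, 3.96 to 6.04). Lpl, with 1 and 3 UMIs, could not be judged, and Lyz1 had a ratio of 0.73 whose interval reached from -0.08 to 1.58. Of the lipid-associated list 10 of 13 measured genes were higher and 1, Apoe, was lower by 2-fold or more. The summed level of that list was 24299 CPM in WT and 21431 CPM in KO. Of the glycolysis list 9 of 13 were higher and 0 lower. MHC class II was lower by more than in the CD45-enriched cells: 7 of 9 measured genes passed 2-fold, H2-Aa stood at 8167 CPM in WT and 1939 CPM in KO (log2 -2.07, -2.20 to -1.95), and Cd74 had a ratio of -2.29 (-2.36 to -2.22). Cells placed in the cluster led by Arg1 and Spp1 numbered 2 of 185 in WT and 128 of 311 in KO, a placement that uses those same genes. Siglech had 15 and 1 UMIs, and Stat4 10 and 2. WT had 0 neutrophil-like cells of 185 and KO had 6 of 311. T or innate lymphoid-like cells numbered 3 and 6, so the T share (1.62%, 0.336 to 4.67, and 1.93%, 0.711 to 4.15) did not differ beyond counting error there.

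**Figure D5:**
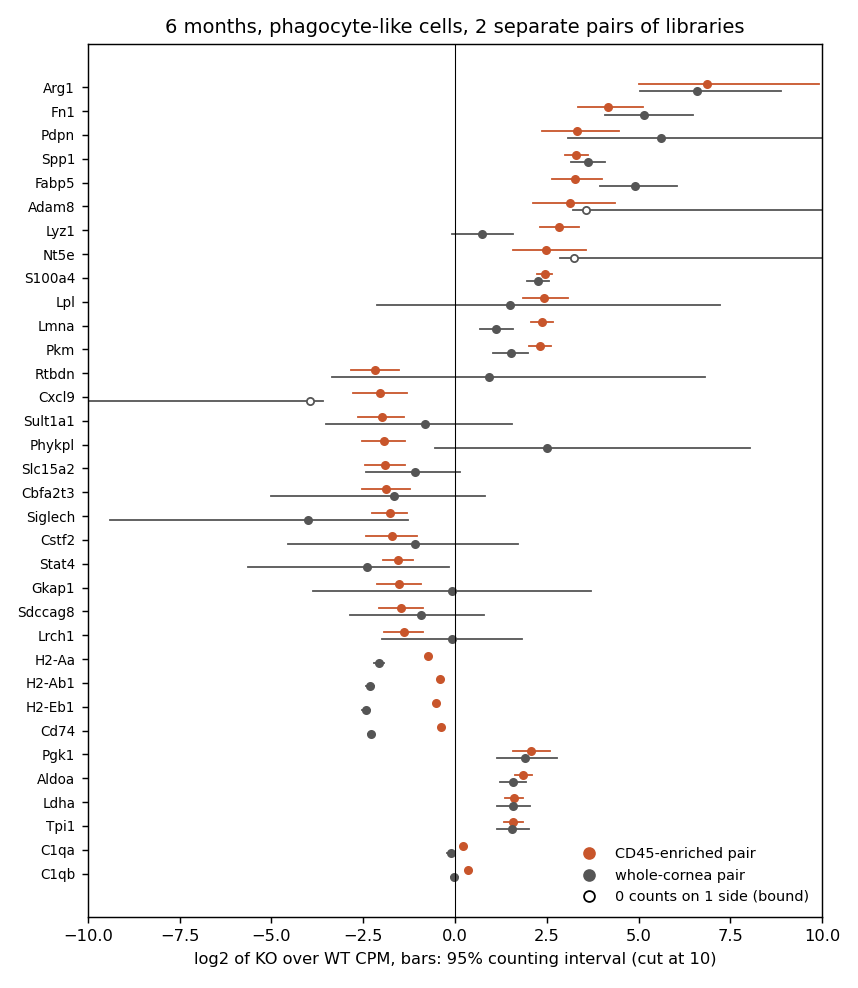
Log2 of KO over WT CPM (x) in phagocyte-like cells at 6 months for the genes named above and members of the class II, glycolysis and complement lists, in the CD45-enriched pair (orange) and the whole-cornea pair (grey); bars are 95% counting intervals, open circles are bounds where 1 library had 0 counts. Arg1, Spp1, Fn1 and Fabp5 lie to the right in both pairs, and the class II genes lie farther to the left in whole cornea (H2-Aa -2.07 against -0.75).

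At 2 months the whole-cornea pair gave 177 WT and 162 KO phagocyte-like cells. Of 1967 measured genes 8.59% were higher and 7.32% lower. Arg1 had 0 UMIs in both libraries there. Spp1 had 7 and 21 UMIs (log2 1.71, 0.42 to 3.19), H2-Aa had a ratio of -0.04 (-0.14 to 0.05), and 0 of 10 measured glycolysis genes were higher. Of the 184 genes 48 were measured, and 6 (12.5%) were higher by 2-fold. Of the 59 lower genes 10 were measured and 1 was lower by 2-fold, and the median log2 ratio of the 10 was 1.42, the opposite direction.

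Transcripts with seed sites of the knocked-out microRNAs were then described. A site was the 7-letter complement of bases 2 to 8 on the transcript strand of the longest annotated 3′ UTR: TTGCCAA for miR-182, GTGCCAA for miR-96 and GTGCCAT for miR-183, which share the letters TGCCA. Of the 4425 phagocyte genes 4357 had an annotated UTR, and 27.1% of these had at least 1 of the 3 sites, against 23.1% of all 21024 UTRs. The median log2 ratio was 0.03 for the 1179 genes with a site and 0.10 for the 3178 without, and 3.39% and 4.47% of them were higher by 2-fold. Genes with a site had longer UTRs, a median of 2595 bases against 845. With genes split into 3 equal groups by UTR length, the medians with and without a site were 0.19 and 0.17 for the shortest UTRs, 0.12 and 0.05 for the middle and -0.03 and -0.01 for the longest. By microRNA, the medians with a site were 0.00 for miR-182, 0.05 for miR-96 and 0.01 for miR-183. Of 6 measured genes listed as reported targets of these microRNAs 0 passed 2-fold: Egr1, an immediate early transcription factor, stood at -0.74 (-0.88 to -0.60), Ezr, the membrane linker ezrin, at 0.92 (0.33 to 1.56), and Foxo3, Mitf, Itgb1 and Cybb lay between -0.11 and 0.29. Tyrobp, another reported target, was part of the immune gate and was not compared.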

How the data were processed

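The authors deposited unfiltered matrices of raw UMI counts per gene and barcode, made with Cell Ranger on mm10, with no normalization. The version is 6.0.1 per the file headers and 2.1.1 per the submitters' processing notes. Per the labels, libraries used the 10x 3' v2 kit after collagenase and DNase digestion. For the annotation release and alignment settings the sources used here give nothing. Barcodes were filtered as the report states, and free RNA was not subtracted. Cells were scaled to 10000 and log-transformed. With 2000 variable genes, 30 components and 15 neighbours, Leiden clustering (leidenalg 0.10.2, Python 3.11.15) at resolution 1 was run on all cells and again on the immune cells. Clusters were named from marker lists (at least 3 markers, each in 20% of the cells), and names mean "like". Doublets were scored against simulated pairs and the top 5% left out only as an alternative. The data hold 1 library per group, so no test was run. Intervals are Clopper-Pearson, exact Poisson or exact conditional. Thinning drew 500 UMIs per cell. Alternatives changed the depth limit (1000 UMIs), gate, doublets, resolution, thinning, scaling and CPM minimum. The calculations were tested on simulated data.

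Members, the 15 gene lists and all rules were chosen with earlier results of these data known. Genes were named as the 12 highest and 12 lowest log2 ratios among genes past 2-fold (5 and 5 for T cells). They had an interval excluding 0 and 1 sign in all alternatives in which they were measured. Over all immune cells that was 10 alternatives for Spp1 but 5 for Lrg1. Mitochondrial, ribosomal, Gm and Rik genes were left out, and list members past 2-fold with the most counts were added.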

Additional observations from a re-analysis of the deposited data

Results flagged for a closer look

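Some genes had a KO over WT ratio opposite in sign to that of the CD45-enriched pair in a whole-cornea pair, with counting intervals that excluded 0 in both. The difference between pairs was not tested, since each group held 1 library, and the pairs differ in enrichment and, at 2 months, in age. At 6 months Cxcl10 in phagocyte-like cells had 6 WT and 0 KO UMIs, a log2 bound of -1.09 against 1.26 in the CD45-enriched pair. Ccl17, a chemokine of dendritic cells, had -4.74 over all immune cells, against 1.49. At 2 months Siglech stood at 2.82 in phagocytes and 2.97 in all immune cells, and Slc15a2 at 2.12 and 2.06, where both were lower in the CD45-enriched pair. At 2 months Naip6 stood at 3.76 in all immune cells, from 1 and 13 UMIs. Cfp stood at -4.13 in phagocytes and -3.19 in all immune cells at 2 months. Ldha stood at -0.96 in phagocytes at 2 months, from 34 and 16 UMIs.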

How the results depend on the processing

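No paired analysis was possible because each group held 1 library and no replicate number ties samples. In all immune cells the 170 higher and 35 lower genes became 266 and 70 with each cell thinned to 500 UMIs, 346 and 130 at a mean of 10 CPM, 64 and 2 at 50 CPM, and 89 and 107 within clusters weighted alike. The lower count was also 81 with cells of at least 1000 UMIs and 58 with scaling by the median ratio. In phagocyte-like cells the 184 and 59 became 292 and 105 with at least 1000 UMIs, 357 and 178 at 10 CPM, 76 and 9 at 50 CPM and 117 and 135 within clusters, and the lower count was 91 on thinned cells. In T or innate lymphoid-like cells the 140 higher became 243 with scaling by the median ratio, and the counts were 55 and 141 at a mean of 200 CPM. The phagocyte share differed by -16.15 points at resolution 1.5, against -9.87. The neutrophil share differed by 11.2 points with 3 gate UMIs and 7.69 at resolution 1.5, where a second cluster led by Ptgs2 was also named neutrophil. The immune share differed by 22.14 points with at least 1000 UMIs and by -1.22, reversed, on thinned cells. For the genes named by the rule 40 values moved by more than their interval and 485 did not, with 0 changes of sign, which the rule required. The causes were not tested.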
